A study of Rattus norvegicus with 6 samples.

Results

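The lysosome is the acidic organelle in which cells take apart proteins, glycans and lipids, and the genes described here encode 38 of its soluble enzymes, membrane proteins and regulators. The members were listed by function and were matched by symbol in the deposited table of reads per gene. Of the 38 members, 37 were found among the 20609 genes of the table, and 34 had enough counts to be tested. Ctsc, the dipeptidyl peptidase cathepsin C, had no matching row and is not analysed here. The study names the cells as PC12, a line derived from an adrenal chromaffin cell tumor of the rat. In the control group (3 libraries) PC12 cells carried a control plasmid, and in the PCBP1-OE group (3 libraries) they carried a plasmid for overexpression of PCBP1, an RNA-binding protein, which the study describes as EGFP-tagged and delivered with Lipofectamine. All 6 libraries are from this 1 line, and the labels do not say that replicates were separate cultures, so p-values measure the spread between these samples, which may be technical. The libraries held 19730209 to 22315623 counts on genes. No row of the table was matched to Pcbp1, so the overexpression itself was not checked here. The study reports higher PCBP1 in PCBP1-OE cells by RT-qPCR and by western blot.

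The labelled cell type was checked against markers. Of 14 chromaffin markers 12 had a row and 4 were counted deeply enough for a test. Th, the rate-limiting enzyme of catecholamine synthesis, had 141 to 185 counts per library and Scg2, a granin, had 2607 to 3553. Slc18a1, a vesicle transporter, and Gata3, also tested, had 17 to 28 and 26 to 38. Chga, Chgb, Dbh, Ddc, Pnmt and Slc18a2, further granins, catecholamine enzymes and a vesicle transporter of the list, had 0 to 9 and were nearly absent. Most of the chromaffin list thus did not bear out the label PC12, while Th and Scg2 were counted. The identity of the cells was not tested further. The summed level of the chromaffin list was 152 to 182 CPM (counts per 1e+06, scaled by TMM) in controls and 141 to 154 CPM in PCBP1-OE. Of the macrophage and leukocyte list, whose cells are rich in lysosomal enzymes, 13 of 15 markers had a row and 6 were tested. Cd14, a receptor for lipopolysaccharide, had 698 to 887 counts per library and made up 76.3% to 81.2% of the summed level of the list. Cd74 had 63 to 110 counts and Itgb2 had 58 to 73, while Ptprc, Csf1r and Tyrobp had 0 to 4. The 4 chromaffin, 6 macrophage and leukocyte and 5 fibroblast markers tested had adjusted p-values of 0.0644 or more by edgeR, with 3 (Pdgfra, Scg2 and Cd14) at an unadjusted p under 0.05. The summed level of the macrophage and leukocyte list was 47.2 to 53.1 CPM in controls against 41.5 to 48.3 CPM in PCBP1-OE, and Laptm5 of that list also stands among the other membrane proteins. The summed level of the fibroblast list was 256 to 259 CPM in controls and 233 to 242 CPM in PCBP1-OE. Most came from Pdgfra, a growth factor receptor, which had 3939 to 4941 counts per library (log2 fold change -0.14, adjusted p = 0.0644, edgeR). Of the same list, Pdgfrb had 535 to 676 counts, Col1a1 61 to 74, Col3a1 23 to 43 and Postn 13 to 29. Dcn, Fap and Thy1 had 0 to 5 and were nearly absent. The part of these markers and of the few counts of the chromaffin genes in the lysosomal differences was not tested.

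Lysosomal hydrolases are made in the endoplasmic reticulum, tagged with mannose 6-phosphate in the Golgi apparatus and carried to the lysosome by receptors for that tag. A proton pump, the V-ATPase, keeps the lumen acidic, which the enzymes need. Many of these genes are under the control of TFEB and related factors, which bind an E-box in their promoters. Loss of single enzymes causes lysosomal storage diseases, and lysosomal function is studied widely in Parkinson's disease.

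Promoter sequences from RefSeq (build GRCr8) were found for 33 of the 38 members and run from 250 bases before to 50 bases after the annotated start of the gene. They are shown because members of this group are known targets of E-box binding factors. The letters searched were CACGTG, the E-box core, and TCACGTGA, the longer form that contains it. Each reads the same on both strands. CACGTG was found in 10 of 33 member promoters (30.3%), against 6.42% of all 33469 promoters of this length and 9.13% of those of genes tested here. TCACGTGA was found in 4 of 33 (12.1%), against 0.777% of all promoters and 1.66% of those of tested genes. A match describes these letters in this window and does not show that a factor binds there. The 5 stretches with TCACGTGA lie in the promoters of Cln3, Ctsd, Mcoln1 and Lamp1, the last with a pair of them, and are printed 5′ to 3′ with the motif in capitals.
Cln3, chr1:190597950-190597979 (reverse strand): cacgggtactgTCACGTGAtccccaacctg
Ctsd, chr1:206968814-206968843 (reverse strand): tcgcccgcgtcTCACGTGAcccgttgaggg
Mcoln1, chr12:6358250-6358279 (forward strand): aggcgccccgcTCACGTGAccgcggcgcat
Lamp1, chr16:83075111-83075140 (reverse strand): agaccctcggcTCACGTGAccggcgggcgc
Lamp1, chr16:83075084-83075113 (reverse strand): cgcggcactgtTCACGTGAcaggcgctgcc

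The core CACGTG alone was found in the promoters of Ctsf, Glb1, Gaa, Sgsh, Idua and Tmem175, and Cln3, Ctsd, Mcoln1 and Lamp1 held further copies of it. The core stretches of Gaa, which encodes the glycogen-degrading acid alpha-glucosidase, and Sgsh, which encodes the heparan sulfamidase, are shown with the core in capitals.
Gaa, chr10:105028276-105028305 (forward strand): ccgcccacaaacCACGTGacccacgctgcc
Sgsh, chr10:105112029-105112058 (reverse strand): gagcctgccgtgCACGTGaccctgtggagg

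The 250 bases upstream of the start are printed in full for Glb1, Man2b1 and Grn, the 3 members with a called difference between the groups. Glb1 holds CACGTG once, shown in capitals, and Man2b1 and Grn do not hold it in these bases.
Glb1, chr8:122963468-122963717 (forward strand): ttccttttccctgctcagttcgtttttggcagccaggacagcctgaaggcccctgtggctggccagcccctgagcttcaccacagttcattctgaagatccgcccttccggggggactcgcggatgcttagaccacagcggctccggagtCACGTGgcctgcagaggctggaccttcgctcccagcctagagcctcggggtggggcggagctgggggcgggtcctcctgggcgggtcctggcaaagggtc
Man2b1, chr19:39979247-39979496 (reverse strand): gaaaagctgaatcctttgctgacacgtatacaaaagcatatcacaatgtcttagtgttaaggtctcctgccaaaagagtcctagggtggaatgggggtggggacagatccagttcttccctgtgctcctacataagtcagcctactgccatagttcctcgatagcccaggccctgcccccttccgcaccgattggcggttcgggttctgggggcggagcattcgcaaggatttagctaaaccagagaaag
Grn, chr10:87887584-87887833 (forward strand): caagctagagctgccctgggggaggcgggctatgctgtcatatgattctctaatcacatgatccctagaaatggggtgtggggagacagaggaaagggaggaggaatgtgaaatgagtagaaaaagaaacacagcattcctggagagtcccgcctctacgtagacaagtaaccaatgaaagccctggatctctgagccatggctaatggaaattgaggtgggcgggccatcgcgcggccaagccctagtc

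To ask whether lysosomal genes differed between PCBP1-OE and control cells, every gene of the table was tested with edgeR and the members were then read out. Of 34 members tested, 3 fell and 0 rose at an adjusted p of 0.05 or less, namely Glb1, Man2b1 and Grn, each by between 12.1% and 12.9%. Over all 12624 genes tested, 9.45% were called, 4.45% higher and 5% lower, so the share of members called (8.82%) was near that of all genes. None of the 34 members reached the 2-fold change that the study required of a differentially expressed gene. In this fit 24 of all tested genes (0.19%) were called with such a change. The study's own edgeR run listed more genes at these cutoffs, and the reason for the difference was not tested. At an unadjusted p under 0.05 there were 13 of 34 members (38.2%), against 28.4% of all genes. DESeq2 called 0 members higher and 4 of 33 lower (12.1%), where it called 13.3% of all genes and 7.05% lower. In bulk RNA, fewer cells of a type and less RNA per cell cannot be told apart.

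Most members sat slightly lower in PCBP1-OE. The log2 fold change was below 0 for 24 of 34 members and above 0 for 10, with a median of -0.072, beside a median of 0.0029 and 49.5% below 0 over all genes tested. It was within 0.25 of 0 for 32 of 34 members. In 12 of 34 members (35.3%) all 3 PCBP1-OE libraries lay below all 3 controls, and in 2 (5.88%) they lay above. Over all tested genes the groups did not overlap in 30.6%, with PCBP1-OE below in 16.5% and above in 14.1%. The members were counted more deeply than most genes, with a median level of 73.1 CPM against 25.7 CPM over all tested genes, and the part of depth in these counts was not tested.

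**Figure D1:**
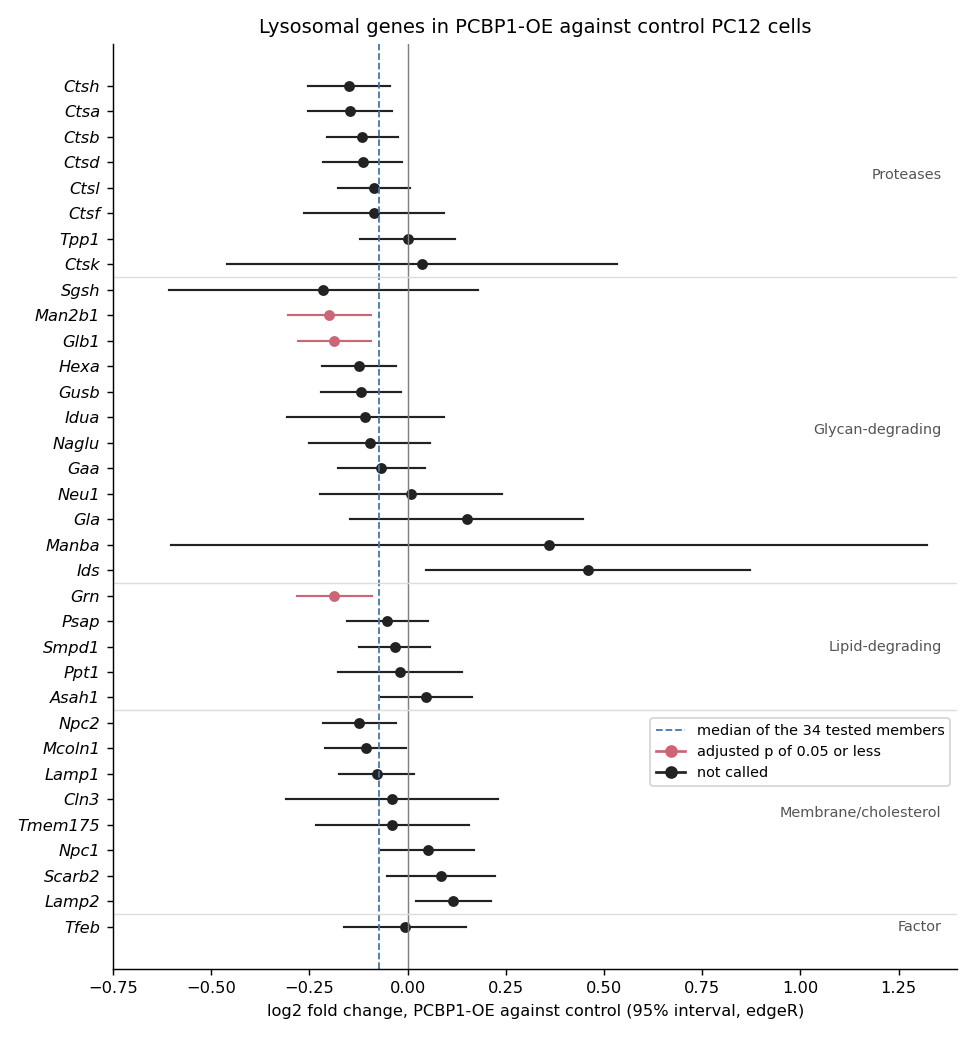
The log2 fold change of PCBP1-OE against control is on the x axis for each of the 34 tested lysosomal genes, grouped by role on the y axis, with points for the edgeR estimate and bars for its 95% interval. The points of Man2b1, Glb1 and Grn, in colour, are the 3 called genes, and the dashed line marks the median of -0.072.

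Glb1 (ENSRNOG00000010196, chromosome 8) encodes lysosomal beta-galactosidase, which removes galactose from gangliosides and keratan sulfate. Its normalized counts were 159, 151 and 152 CPM in controls against 135, 137 and 135 CPM in PCBP1-OE. Every PCBP1-OE library was below every control, and the libraries within each group lay close together. The level fell by 12.1%, a log2 fold change of -0.19 (SE 0.04, adjusted p = 0.0221, edgeR).

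Man2b1 (ENSRNOG00000023910, chromosome 19) encodes the alpha-mannosidase that trims mannose from N-glycans in the lysosome. It stood at 62.3, 59.2 and 60.6 CPM in controls against 53.0, 53.4 and 52.1 CPM in PCBP1-OE. The groups did not overlap here either. The level fell by 12.9%, a log2 fold change of -0.20 (SE 0.05, adjusted p = 0.0281, edgeR).

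Grn (ENSRNOG00000021031, chromosome 10) encodes progranulin, a secreted and lysosomal glycoprotein that is cut into granulins. It was at 621, 652 and 608 CPM in controls against 536, 554 and 563 CPM in PCBP1-OE. All 3 PCBP1-OE libraries lay below the lowest control. The level fell by 12.1%, a log2 fold change of -0.19 (SE 0.04, adjusted p = 0.0250, edgeR).

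**Figure D2:**
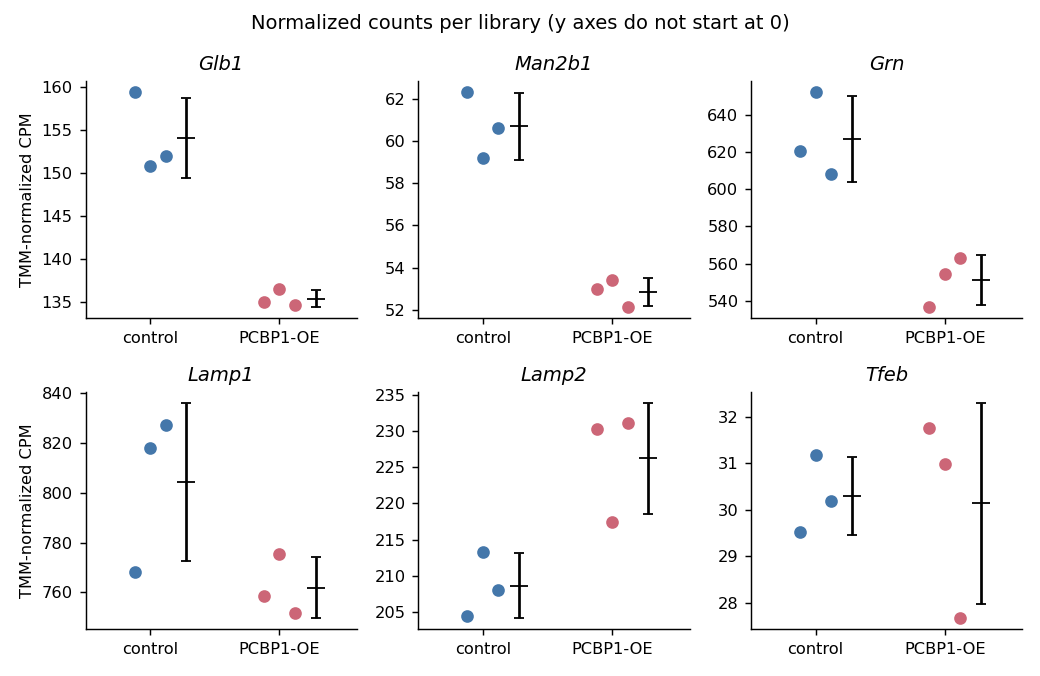
TMM-normalized CPM (y axis, not starting at 0) of 6 lysosomal genes in each control and PCBP1-OE library (points), with the mean and SD of the 3 libraries beside them. Glb1, Man2b1 and Grn show no overlap with PCBP1-OE lower, Lamp2 none with PCBP1-OE higher, and Lamp1 and Tfeb overlap between groups.

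The 3 calls were sensitive to the omission of single libraries. With 1 library left out at a time, all 3 genes passed an adjusted p of 0.05 only without control replicate 3, Grn also passed without PCBP1-OE replicate 3, and none of them passed in the other 4 fits. Across the 12 scalings, filters, tests and omissions in the plot of adjusted p by setting, Glb1 had adjusted p-values from 0.00764 to 0.142, Man2b1 from 0.0126 to 0.0955 and Grn from 0.00112 to 0.138, while the log2 fold changes stayed between -0.21 and -0.15. An edgeR fit with a block for the replicate number is not in the plot. It gave adjusted p-values of 0.125 for Glb1, 0.131 for Man2b1 and 0.139 for Grn. Omission of a library also moved the share of all genes called, from 9.45% to 22.3% without control replicate 3 and to between 0.375% and 5.42% without any other library.

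**Figure D3:**
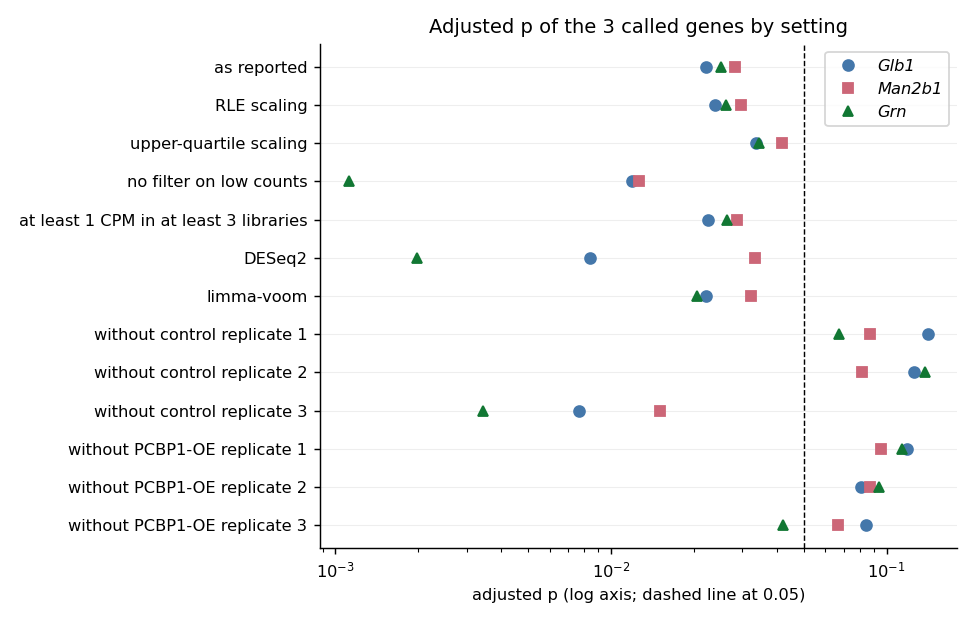
Adjusted p (x axis, log scale, dashed line at 0.05) of Glb1, Man2b1 and Grn as reported and under each alternative scaling, filter, test or omitted library (y axis). All 3 genes lie right of the line when control replicate 1 or 2 or PCBP1-OE replicate 1 or 2 is left out, as do Glb1 and Man2b1 without PCBP1-OE replicate 3, and all lie left of it without control replicate 3 and under each scaling, filter and test shown. The fit with a block for the replicate number, in which none of the 3 genes passed, is not shown.

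Among the proteases, 8 of 11 members were tested and none was called by edgeR, with 4 at an unadjusted p under 0.05, while DESeq2 called Ctsb. Their log2 fold changes ran from -0.15 to 0.04, with 6 of 8 below 0. In Ctsa, Ctsb, Ctsd, Ctsh and Ctsl all PCBP1-OE libraries were below all controls. Ctsh, an aminopeptidase of the cysteine cathepsin family, was at 142, 156 and 154 CPM in controls against 131, 139 and 138 CPM in PCBP1-OE (log2 fold change -0.15, adjusted p = 0.0681, edgeR). Ctsa, the serine carboxypeptidase that protects beta-galactosidase and sialidase in a complex with them, was at 207 ± 12.4 CPM in controls against 187 ± 3.06 CPM in PCBP1-OE (SD, n = 3 each), with an adjusted p of 0.0750 by edgeR. The next 3 are the widely expressed endopeptidases. Ctsb, a cysteine protease, was at 689, 717 and 715 CPM in controls against 643, 653 and 663 CPM in PCBP1-OE, and Ctsd, the aspartic protease, was at 655 ± 24.2 and 606 ± 22.7 CPM (SD, n = 3 each). Ctsl was at 306 ± 7.49 and 288 ± 7.43 CPM (SD, n = 3 each). Their adjusted p-values were 0.0903, 0.127 and 0.205 by edgeR. The groups overlapped in the other 3. Ctsf, a cysteine protease, was at 20.6 ± 1.26 and 19.4 ± 0.425 CPM (SD, n = 3 each). Ctsk, the collagen-degrading cathepsin of osteoclasts, had counts of 46, 84 and 80 in controls against 85, 51 and 75 in PCBP1-OE. Tpp1, the tripeptidyl peptidase lost in a form of Batten disease, had a log2 fold change of 0.00 with a 95% interval of -0.12 to 0.12.

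All 12 glycan-degrading enzymes were tested, of which Glb1 and Man2b1 fell and none rose. In Hexa and Gusb the groups also did not overlap, with PCBP1-OE below. Hexa, the alpha subunit of beta-hexosaminidase, was at 173 ± 4.30 CPM in controls against 159 ± 4.20 CPM in PCBP1-OE, and Gusb, beta-glucuronidase, at 77.6 ± 2.86 and 71.5 ± 0.852 CPM (SD, n = 3 each). Their adjusted p-values were 0.0865 and 0.119 by edgeR. Gaa, Idua, which cleaves iduronic acid from heparan and dermatan sulfate, and Naglu, which removes N-acetylglucosamine from heparan sulfate, had log2 fold changes of -0.07, -0.11 and -0.10 and overlapping groups. Gla, which removes galactose from globotriaosylceramide, was at 8.50 ± 1.24 and 9.47 ± 1.03 CPM (SD, n = 3 each). Neu1, the sialidase of the complex with Ctsa and Glb1, was at 15.9, 14.6 and 12.4 CPM in controls against 14.2, 13.8 and 15.1 CPM in PCBP1-OE, with a log2 fold change of 0.01 and a 95% interval of -0.22 to 0.24.

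The 3 largest fitted differences of the members belonged to glycan-degrading enzymes with few counts, and none of them was called. Ids, the sulfatase that removes sulfate from iduronic acid, had counts of 105, 66 and 127 in controls against 141, 129 and 132 in PCBP1-OE. On the CPM scale all PCBP1-OE libraries (6.40, 6.39 and 6.74) were above all controls (5.35, 3.16 and 5.66), and control replicate 2 was the lowest. The log2 fold change was 0.46 (SE 0.19, adjusted p = 0.134, edgeR), 0.24 without control replicate 2, and past the threshold in 1 of 13 alternatives, without control replicate 3 (0.0343, in a range of 0.0343 to 0.392). The table places this row on chromosome 8 while RefSeq places Ids on chromosome X, so it is uncertain which locus its reads came from. It was the 1 member of 37 whose chromosome differed. Manba, beta-mannosidase, had counts of 9, 6 and 11 in controls against 16, 11 and 6 in PCBP1-OE (log2 fold change 0.36, SE 0.45, adjusted p = 0.638, edgeR). Sgsh had counts of 61, 64 and 60 in controls against 56, 54 and 47 in PCBP1-OE (log2 fold change -0.21, SE 0.18, adjusted p = 0.475, edgeR). The normalized groups of Manba and Sgsh overlapped.

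Grn was counted in the group of 6 lipid-degrading enzymes and activators, although its product is described above as a glycoprotein cut into granulins. Grn was the only call of the group, and the other 4 tested were not called. Psap, the precursor of the saposins that present sphingolipids to their hydrolases, was at 1024, 1117 and 1136 CPM in controls against 1040, 1062 and 1061 CPM in PCBP1-OE. Control replicate 1 was below all PCBP1-OE libraries and the other controls were above them. The log2 fold change of Psap was -0.05 with a 95% interval of -0.15 to 0.05. Asah1, the acid ceramidase, was at 393 ± 28.4 and 407 ± 13.2 CPM, Smpd1, the acid sphingomyelinase, at 144 ± 2.84 and 141 ± 1.97 CPM, and Ppt1, a thioesterase that strips palmitate from proteins, at 39.2 ± 3.94 and 38.7 ± 0.953 CPM (SD, n = 3 each). Their groups overlapped, with log2 fold changes of 0.05, -0.03 and -0.02.

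The 8 membrane and cholesterol-transfer proteins were all tested and none was called by edgeR or DESeq2, with 3 at an unadjusted p under 0.05. Lamp1 and Lamp2 are the heavily glycosylated proteins that line the lysosomal membrane. Lamp2, of which one isoform serves chaperone-mediated autophagy, was at 204, 213 and 208 CPM in controls against 230, 217 and 231 CPM in PCBP1-OE. All PCBP1-OE libraries were above all controls, with a log2 fold change of 0.12 (95% interval 0.02 to 0.21, adjusted p = 0.102, edgeR). Lamp1 was at 768, 818 and 827 CPM in controls against 759, 775 and 752 CPM in PCBP1-OE, with PCBP1-OE replicate 2 above control replicate 1 (log2 fold change -0.08, 95% interval -0.17 to 0.02). Npc2 and Npc1 pass cholesterol from the lumen to the membrane and out of the lysosome. Npc2 was at 615 ± 16.7 CPM in controls against 565 ± 16.4 CPM in PCBP1-OE, without overlap (adjusted p = 0.0865, edgeR), and Npc1 at 54.0 ± 3.08 and 55.9 ± 0.182 CPM, with overlap (SD, n = 3 each). The calcium channel Mcoln1 was at 72.5, 74.5 and 75.5 CPM in controls against 67.8, 71.8 and 67.2 CPM in PCBP1-OE, again with PCBP1-OE below (log2 fold change -0.11, adjusted p = 0.162, edgeR). Scarb2, the receptor that carries glucocerebrosidase to the lysosome, had a log2 fold change of 0.09, and Tmem175, a lysosomal ion channel, and Cln3, a membrane protein lost in juvenile Batten disease, both of -0.04, with overlapping groups.

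Ratios within a library do not depend on the scaling between libraries, and they were read for functional pairs as a description, chosen after the values were seen. The ratio of Lamp2 to Lamp1 counts was 0.266, 0.261 and 0.252 in controls against 0.304, 0.280 and 0.307 in PCBP1-OE. The ratio of Psap to Grn, whose products bind each other, was 1.65, 1.71 and 1.87 in controls against 1.94, 1.92 and 1.88 in PCBP1-OE. Neither ratio overlapped between groups. Lamp2 and Grn, like Npc2 and Glb1 in the ratios below, were already without overlap on their own, so the ratios are no separate support. Ratios of other gene pairs were not read for comparison. For Npc1 to Npc2 the values were 0.0886, 0.0802 and 0.0947 in controls against 0.101, 0.101 and 0.0954 in PCBP1-OE, without overlap but with control replicate 3 close to PCBP1-OE replicate 3. For Glb1 to Ctsa the groups overlapped (0.824, 0.693 and 0.722 against 0.735, 0.722 and 0.713). The ratio of Glb1 to Neu1 was 10.1, 10.4 and 12.2 in controls against 9.54, 9.91 and 8.91 in PCBP1-OE. These are ratios of counts, not corrected for gene length, so they compare libraries and not the levels of the paired genes.

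Tfeb, the factor that drives many lysosomal genes, did not pass the test. It had counts of 579, 651 and 677 in controls against 700, 625 and 542 in PCBP1-OE, or 29.5, 31.2 and 30.2 CPM against 31.8, 31.0 and 27.7 CPM. The PCBP1-OE libraries spanned the controls, with PCBP1-OE replicate 3 the lowest of all 6. The log2 fold change was -0.01 with a 95% interval of -0.16 to 0.15 (adjusted p = 0.960, edgeR). Its relatives Tfe3 (18.8, 16.8 and 20.5 CPM against 25.7, 24.1 and 16.9 CPM) and Mitf (log2 fold change 0.10, 95% interval -0.13 to 0.34) were not called either.

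A further 3 members were left out of the test for low counts. Ctss, a cathepsin of antigen-presenting cells, had counts of 8, 6 and 4 in controls against 4, 5 and 10 in PCBP1-OE. Ctsz, a carboxypeptidase, had 0, 0 and 3 counts against 1, 0 and 2. Gm2a, which lifts the ganglioside GM2 out of the membrane for hexosaminidase, had 5, 0 and 0 counts against 0, 1 and 3. A difference in these genes was not detectable at this depth.

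Summed over the 37 members, the normalized level was 6863, 7269 and 7225 CPM in controls against 6648, 6748 and 6762 CPM in PCBP1-OE. Control replicate 1 stood nearer to the PCBP1-OE libraries than the other controls did. As a share of all counts, without TMM scaling, the members made up 0.664%, 0.714% and 0.726% of the control libraries and 0.686%, 0.687% and 0.671% of the PCBP1-OE libraries, and on this scale the groups overlapped. On the log2(CPM + 0.5) scale, the median deviation of the 34 tested members from their mean was -0.016, 0.055 and 0.063 in controls against -0.047, -0.016 and -0.039 in the PCBP1-OE libraries, where control replicate 1 was just below PCBP1-OE replicate 2. Without control replicate 1 the median log2 fold change of the members was -0.11.

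**Figure D4:**
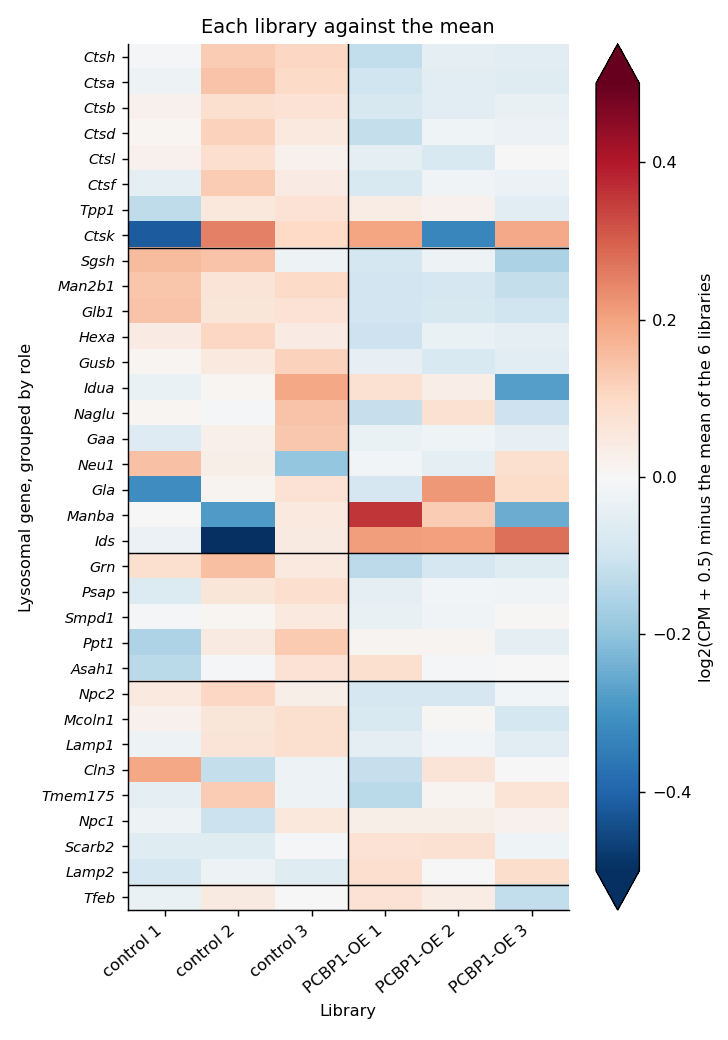
Colour shows log2(CPM + 0.5) of each of the 34 tested lysosomal genes (rows, grouped by role) minus its mean over the 6 libraries (columns). Most rows are pale red in control replicates 2 and 3 and pale blue in PCBP1-OE, control replicate 1 is mixed, and the deepest colours are in Ctsk, Manba and Ids, which have few counts.

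The other genes of the lysosome were read from 4 lists drawn up by function. Of 23 tested V-ATPase subunits, Atp6v1a, the catalytic subunit, rose from 130 ± 5.81 to 146 ± 2.90 CPM and Atp6v0e1, a membrane subunit, fell from 129 ± 8.44 to 112 ± 6.62 CPM (SD, n = 3 each). Their adjusted p-values were 0.0455 and 0.0448 by edgeR, the others were not called (8.7% called in the list, near the 9.45% of all genes), and the median log2 fold change of the list was -0.0071. Of 45 other tested hydrolases and membrane proteins, 5 fell and 1 rose (13.3% called, against 9.45% of all genes, and 11.1% lower, against 5%), with a median of -0.077. In this list PCBP1-OE lay below control without overlap in 20 of 45 genes (44.4%) and above in 1 (2.22%), beside the 16.5% and 14.1% of all genes given above. The other lists differed from it. The shares below and above were 17.4% and 8.7% for V-ATPase subunits and 28.6% and 4.76% for mannose 6-phosphate and sorting. For MiT/TFE factors and nutrient sensing they were 8.7% and 17.4%, with more genes above than below.

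The genes called among the other hydrolases and membrane proteins covered several functions. Abcb9, a lysosomal peptide transporter, fell from 62.8 ± 0.785 to 52.2 ± 0.749 CPM (SD, n = 3 each), or by 0.27 on the log2 scale (adjusted p = 0.00978, edgeR). Dnase2, the acid DNase, fell by 16.3% and Tpcn1, an endolysosomal cation channel, by 12.9%. Hyal2, a hyaluronidase, fell by 18.4% and Laptm4b, a membrane protein of late endosomes and lysosomes, by 10.4%. Ostm1, the partner of the chloride transporter Clcn7, was the gene that rose, from 14.0, 14.6 and 18.7 CPM in controls to 20.8, 20.8 and 20.2 CPM in PCBP1-OE (adjusted p = 0.0442, edgeR).

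Of 21 tested genes for mannose 6-phosphate and sorting, 3 fell and 0 rose (14.3% called, against 9.45% of all genes), with a median log2 fold change of -0.036. M6pr, the cation-dependent receptor for the tag, was at 230, 228 and 214 CPM in controls against 199, 197 and 204 CPM in PCBP1-OE (log2 fold change -0.16, adjusted p = 0.0399, edgeR). The table places the row of M6pr on chromosome X and RefSeq places the gene on chromosome 4, so its locus is uncertain as well. Ap1m1 and Ap1s1, subunits of the AP-1 adaptor that packs cargo at the Golgi, fell by 11.4% and 12.5%. Of 23 tested genes for MiT/TFE factors and lysosomal nutrient sensing, 2 rose and 0 fell, with a median of 0.077. This is 8.7% called, near the 9.45% of all genes. The called genes were the folliculin partners Fnip1, from 64.3 ± 3.63 to 82.6 ± 6.72 CPM, and Fnip2, from 3.70 ± 0.941 to 5.84 ± 0.571 CPM (SD, n = 3 each), with adjusted p-values of 0.00928 and 0.0455 by edgeR.

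The calls in these lists also moved with single libraries. Without control replicates 1, 2 and 3 and then PCBP1-OE replicates 1, 2 and 3, the V-ATPase list had 0, 0, 5, 0, 0 and 0 calls and the list of other hydrolases and membrane proteins had 1, 0, 11, 1, 0 and 2. In the same order the sorting list had 0, 0, 10, 0, 0 and 0 calls and the nutrient-sensing list 1, 1, 6, 1, 1 and 2. Over all genes the shares called in these fits were 1.92%, 0.375%, 22.3%, 1.32%, 1.06% and 5.42%, so the list counts moved with the share of all genes.

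**Figure D5:**
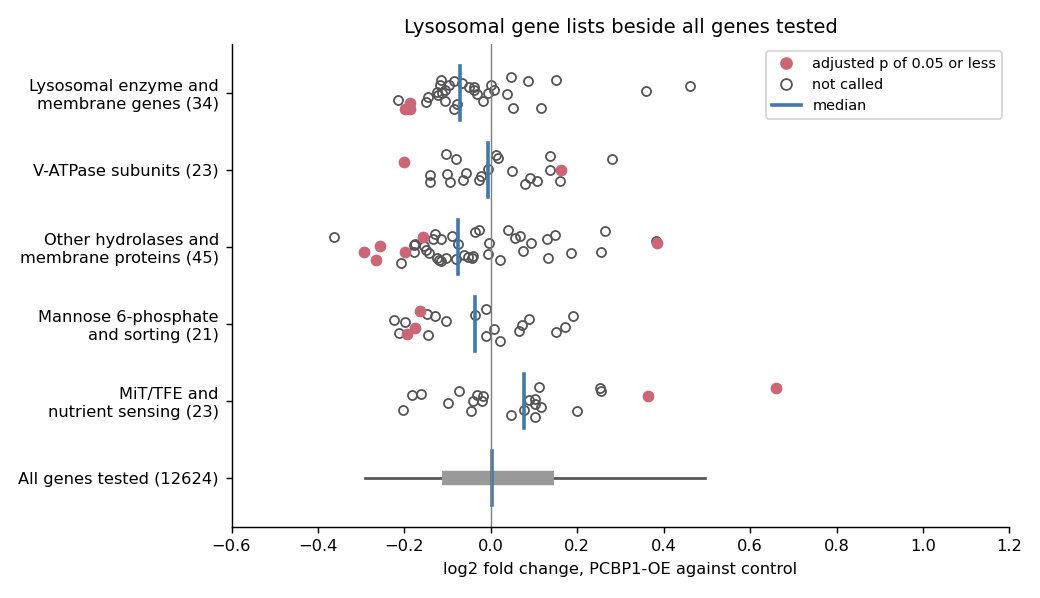
Log2 fold change (x axis) of each tested gene of the lysosomal enzyme and membrane group and of the 4 other lysosomal lists (y axis, number of genes in brackets), with called genes filled and the median as a vertical line. The bottom row shows the median, the middle 50% (thick bar) and the 5th to 95th percentile (thin line, -0.29 to 0.49) of all 12624 genes, and the lists lie mostly within that span.

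The promoters printed above can be set beside the values. All 10 tested members with CACGTG in the promoter window had a log2 fold change below 0, from -0.21 to -0.04, with a median of -0.096. Of 19 tested members with a promoter sequence but without CACGTG, 10 were below 0, with a median of -0.0071. PCBP1-OE lay below control without overlap in 3 of the 10 and in 7 of the 19 (36.8%), beside 15.8% of all tested genes with the motif and 18% of those without it. Over all tested genes with a promoter sequence, 403 of the 878 with CACGTG and 4021 of the 7988 without it were below 0. The median was 0.014 with CACGTG and -0.0015 without it, so lower values did not go with the motif over all genes. Of the 3 called members Glb1 holds the motif, and this comparison is a description with no test.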

How the data were processed

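RNA-seq libraries of poly-A RNA from cells that the study names as PC12 were used, 3 control and 3 PCBP1-OE, matched to group and replicate by title. The authors trimmed reads, aligned them to Rnor_6.0 with TopHat2 and deposited raw counts of uniquely mapped reads per gene, according to the study's methods. The submitters' processing notes list GRCh38, a human build, but the gene identifiers are those of rat. The sources used here do not name the tool that counted reads or its use of strand, so genes that overlap or have a near-identical copy carry uncertain counts. Libraries held 19730209 to 22315623 counts on genes.

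All genes were tested by the quasi-likelihood method of edgeR (version 4.0.16, R 4.3.3), after TMM normalization and removal of low genes by filterByExpr (at least 10 counts, total at least 15), which kept 12624 genes and left out 7985. P-values were adjusted by Benjamini-Hochberg over all genes tested, and a gene was called at an adjusted p of 0.05 or less. SE is the log2 fold change divided by the root of the F statistic. CPM are TMM-scaled, and levels were not compared between genes because gene lengths were not used. The alternatives tried were scaling by RLE or upper quartile, dropping the filter, a filter of 1 CPM in 3 libraries, DESeq2 1.42.0, limma-voom (limma 3.58.1), a block for the replicate number and omission of single libraries. The pipeline was tested on simulated counts.

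The members, lists and tests were chosen with earlier results of these data known. Every member was accounted for. Full statistics were given for members that were called or among the 5 largest absolute log2 fold changes, and in the other lists up to 6 called genes by smallest adjusted p were named. Further values were chosen after they were seen. Promoters came from RefSeq (GRCr8) by symbol, and that table was otherwise used for names and chromosomes only.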

Additional observations from a re-analysis of the deposited data

How the results depend on the processing

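The 3 members called lower (Glb1, Man2b1 and Grn) were called under RLE and upper-quartile scaling, without a filter, with the stricter filter, with DESeq2 and with limma-voom, and DESeq2 added Ctsb. With 1 library left out, the number called lower ranged from 0 to 4 and the number called higher from 0 to 1, and the median log2 fold change of the members from -0.11 to -0.058. The number called ranged from 0 to 5 for V-ATPase subunits, from 0 to 11 for other hydrolases and membrane proteins, from 0 to 10 for sorting and from 1 to 6 for nutrient sensing. In these omissions the share of all genes called ranged from 0.375% to 22.3%. Upper-quartile scaling left 1 V-ATPase call, and over all genes it gave 655 calls higher and 427 lower, against 562 and 631 with TMM. Without a filter 2090 of 20609 genes were called (10.1%) instead of 1193 of 12624 (9.45%). The calls were then 6 of 21 in sorting and 4 of 24 in nutrient sensing. Under upper-quartile scaling 11 members, against 12, had every PCBP1-OE library below every control, a setting chosen after seeing the data. The cause of these changes was not tested, beyond there being fewer libraries in the omissions.

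With the replicate number as a block there were 0 calls lower among the members, 0 in V-ATPase subunits, 0 in other hydrolases and membrane proteins, 0 in sorting and 0 in nutrient sensing, and 16 over all genes instead of 1193. The adjusted p was then 0.125 for Glb1, 0.131 for Man2b1 and 0.139 for Grn. The numbers share no stated batch, and deviations of same-numbered libraries from their group means correlated at -0.078, -0.051 and -0.043 over genes. No library correlated best with its own number. These correlations rest on deviations from means of 3 libraries, so they cannot settle whether same-numbered samples were handled together. Depth limits Ctss, Ctsz, Gm2a and Manba, which had at most 16 counts per library.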
